A study of Homo sapiens with 4 samples.

Results

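The genes described here are 10 genes of the YAP/TAZ pathway, chosen by name out of the 61533 gene identifiers in a table of RNA-seq read counts. They are the coactivators YAP1 and WWTR1 (the gene of TAZ), their DNA-binding partners TEAD1 and TEAD4, the targets CCN1, CCN2 and ANKRD1, and the pathway regulators AMOTL2, LATS2 and AJUBA. CCN1 and CCN2 are the genes long called CYR61 and CTGF. The 10 genes and the gene lists used below were chosen with earlier results of these data known. Each of the 10 matched 1 Ensembl identifier, and all 10 passed the filter on low counts. The counts came from Caki-1, a human cell line established from a renal carcinoma, infected with lentivirus carrying either a short hairpin RNA against TFE3 (shTFE3, genotype label TFE3-KD) or a control sequence (shControl, genotype label WT), with 2 libraries in each arm. All 4 cultures, control included, were selected with puromycin at 1 µg/ml for 3 days, starting 12 hours after they had been divided into dishes, which was done 24 hours after infection. The labels name neither the hairpin sequence nor the number of hairpins, and they do not say whether the 2 libraries of an arm came from separate infections. The p-values below therefore rest on the spread between these libraries, which may be technical. For each gene the edgeR fit takes most of that spread from all genes tested (22.4 prior against 2 residual degrees of freedom).

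YAP and TAZ are transcriptional coactivators without a DNA-binding domain of their own, and they reach DNA mainly through the TEAD family. In the Hippo pathway the MST kinases activate the LATS kinases, which phosphorylate YAP and TAZ and so keep them in the cytoplasm or mark them for degradation. Stiff matrix, cell spreading and low cell density favour nuclear YAP and TAZ, and genes such as CCN1, CCN2 and ANKRD1 are widely used as a readout of their activity. LATS2 and AMOTL2 are both regulators and targets, which closes a negative feedback loop. Read counts measure mRNA, so the phosphorylation and location of the proteins were not measured here.

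The libraries held between 17270180 and 17742519 counts. TFE3, the MiT/TFE transcription factor that the hairpin targets, stood at 70.1 and 66.9 CPM in shTFE3 against 131 and 128 CPM in shControl, where CPM is the count scaled to library size with TMM factors. It fell to 52.9% of control (-0.92 on the log2 scale, SE 0.062, edgeR adjusted p 5.6e-11). Of 15950 genes tested with edgeR's quasi-likelihood test, 23.3% passed a Benjamini-Hochberg adjusted p of 0.05, with 10.3% higher and 12.9% lower in shTFE3. At a change of at least 2-fold on top of that threshold the share was 2.17%. Of the renal epithelial markers, PAX8, KRT8, KRT18 and CDH6 were detected in every library, with 3 of the 8 tested lower in shTFE3 (CDH6, CDH2 and KRT18). PAX2 had 0 counts and KRT19 at most 2. EPCAM was scarce, with 8 and 11 counts in shTFE3 and 21 and 10 in shControl, and CDH1 was low, with 110 and 85 against 83 and 98. Summed levels were 1180 to 1200 CPM in shTFE3 and 1290 to 1330 CPM in shControl for these markers, 0.618 to 0.723 and 0.176 CPM for leukocyte markers, 3.37 to 4.06 and 2.81 to 3.23 CPM for endothelial markers, and 19.1 to 19.2 and 19.8 to 19.9 CPM for fibroblast and pericyte markers. Among their defining genes, PTPRC had at most 1 count in any library, and CDH5, LUM and CD3E had 0. CD14 had 10 and 11 counts in shTFE3 and 2 and 2 in shControl and made up most of the leukocyte sum. PECAM1 had 68 and 58 counts in shTFE3 and 48 and 54 in shControl, PDGFRB 232 and 220 against 197 and 193, and COL1A1 112 and 118 against 141 and 143, and none of these 3 passed the test. All these counts came from cultures of the Caki-1 line, and which cells made these transcripts was not tested.

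In knockdown cells 4 of the 10 genes fell (WWTR1, CCN1, ANKRD1 and AMOTL2), 1 rose (CCN2) and 5 did not pass (YAP1, TEAD1, TEAD4, LATS2 and AJUBA). That is 50% of the genes, beside the 23.3% of all tested genes (10.3% that rose and 12.9% that fell). The median log2 fold change, shTFE3 over shControl, was -0.08 over the 10 genes and 0.0015 over all genes tested. The canonical targets did not move together, since CCN1 and ANKRD1 fell while CCN2 rose. In 5 of the 10 genes the libraries of the arms did not overlap in CPM, and these were the 5 called genes, while 60.3% of all tested genes had arms without overlap. With 1 library left out in turn, fewer of the 10 genes fell in each fit, as was so over all genes tested. CCN2 lost its call without shTFE3 replicate 2. CCN1 was the only one of the 5 whose call held in each of these 4 fits. In bulk RNA, fewer cells with a transcript and less of it in each cell cannot be told apart.

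**Figure D1:**
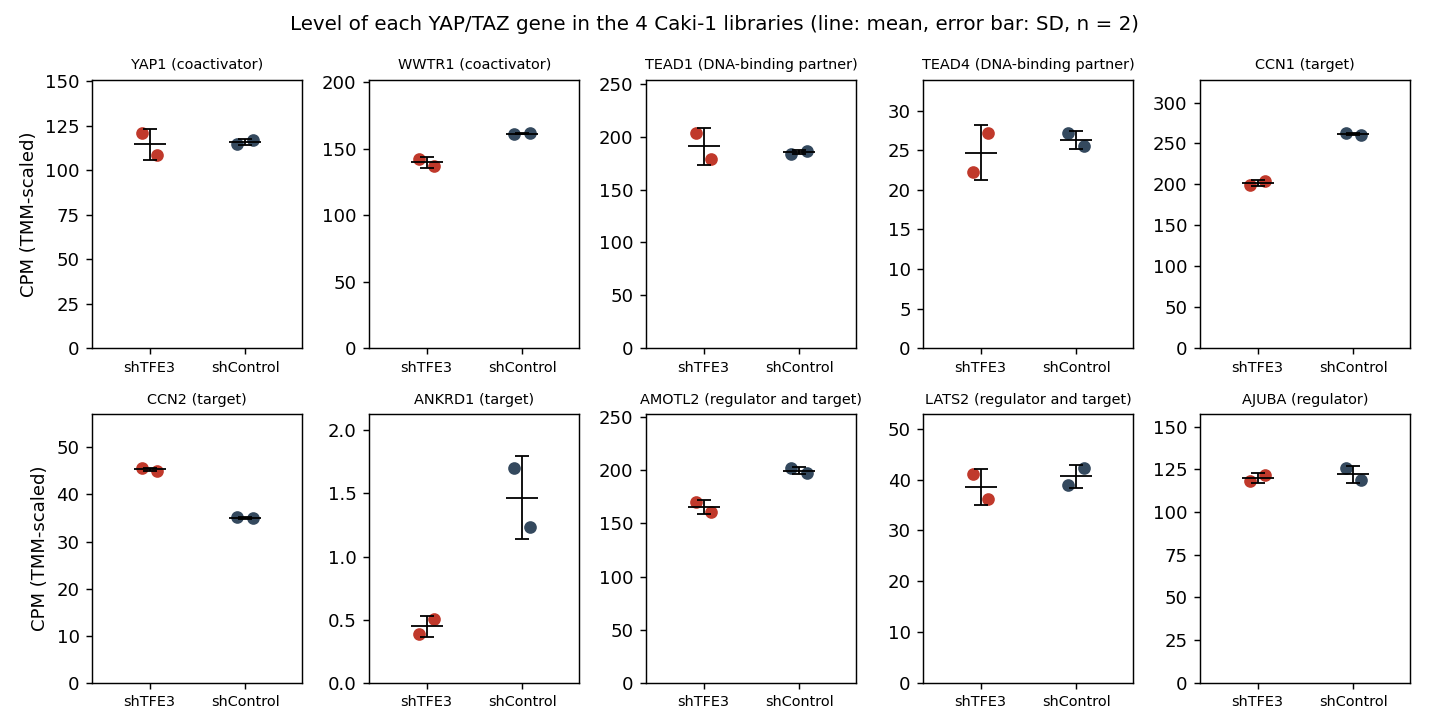
Level of each of the 10 genes in CPM (vertical axis, starting at 0) in the 2 shTFE3 and 2 shControl libraries; points are libraries, the black line is the mean and the error bar the SD (n = 2). The arms stand apart for WWTR1, CCN1, CCN2, ANKRD1 and AMOTL2, and CCN2 is the one that is higher in shTFE3.

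Of the coactivators, WWTR1 fell slightly and YAP1 did not pass. YAP1 (ENSG00000137693, chromosome 11, 102110461 to 102233423, plus strand, GRCh38) had 121 and 108 CPM in the shTFE3 libraries, against 114 and 117 CPM in the shControl libraries. The shControl values lay between the shTFE3 values, and the difference of -0.015 on the log2 scale (SE 0.063, edgeR adjusted p 0.904) had a 95% interval of -0.15 to 0.12. WWTR1 (ENSG00000018408, chromosome 3, 149517235 to 149736714, minus strand) had 143 and 137 CPM in shTFE3, against 161 and 161 CPM in shControl. Both knockdown libraries were below both controls, and WWTR1 fell to 86.6% of the control level (-0.21 on the log2 scale, SE 0.057, edgeR adjusted p 0.00982). The difference between the changes of WWTR1 and YAP1 was not tested, and their intervals overlap. The call of WWTR1 was lost in each fit with 1 library left out, at log2 fold changes of -0.23 to -0.18. It was also lost when low counts were not filtered (-0.22, edgeR adjusted p 0.101).

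Of the TEAD factors, TEAD1 (ENSG00000187079, chromosome 11, 12674591 to 12944483, plus strand) and TEAD4 did not pass. TEAD1 had 203 and 179 CPM in shTFE3 against 184 and 187 CPM in shControl, a difference of 0.043 on the log2 scale (SE 0.062, edgeR adjusted p 0.676, 95% interval -0.084 to 0.17). TEAD4 (ENSG00000197905, chromosome 12, 2959330 to 3040673, plus strand) had 22.3 and 27.1 CPM in shTFE3 against 27.1 and 25.5 CPM in shControl. The difference was -0.091 on that scale (SE 0.096, edgeR adjusted p 0.551, 95% interval -0.29 to 0.11). In both genes the knockdown libraries lay further apart than the controls, by 0.19 against 0.023 on the log2 scale for TEAD1 and by 0.28 against 0.088 for TEAD4, and they did so in opposite order, with replicate 1 the higher for TEAD1 and the lower for TEAD4. Among the relatives, TEAD2 fell to 522 and 550 counts in shTFE3, against 658 and 619 in shControl (log2 fold change -0.32, SE 0.081, edgeR adjusted p 0.00457). TEAD3 had 310 and 294 counts in shTFE3 and 308 and 285 in shControl, with an edgeR adjusted p of 0.812. VGLL4, a TEAD-binding repressor that competes with YAP, had 51.1 ± 2.4 CPM in shTFE3 and 55.1 ± 1.0 CPM in shControl (SD, n = 2 each; edgeR adjusted p 0.304). VGLL2 did not pass either (48 and 39 counts in shTFE3, 26 and 32 in shControl), VGLL3 had at most 7 counts and VGLL1 had 0. Over the 8 tested coactivators, TEAD and VGLL genes 2 fell and 0 rose, a share of 25.0% beside 23.3% of all genes, with a median log2 fold change of -0.067. TEAD2 lost its call without shTFE3 replicate 1, shTFE3 replicate 2 or shControl replicate 1, at log2 fold changes of -0.28, -0.37 and -0.28. Neither TEAD2 nor WWTR1 kept its call with no filter on low counts, where over all genes 104 rose and 280 fell.

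The sequences just before the start sites of ANKRD1, CCN2 and AMOTL2 are shown because these are the target genes that were called and have a RefSeq promoter window. RefSeq windows on GRCh38.p14, which run from 250 bases before to 50 bases after a start, were found for 7 of the 10 genes. No window is shown for CCN1, TEAD1 and TEAD4. AMOTL2 has 2 windows, and the one that holds the element described next is shown. The TEAD family binds the element GGAATG, whose reverse complement is CATTCC, and these 6 letters are in capitals below. Each sequence is given 5′ to 3′ on the strand of its gene and ends at the last base before the start. The ANKRD1 sequence is chr10:90921088-90921337, minus strand, the CCN2 sequence is chr6:131951373-131951622, minus strand, and the AMOTL2 sequence is chr3:134374448-134374697, minus strand.
ANKRD1: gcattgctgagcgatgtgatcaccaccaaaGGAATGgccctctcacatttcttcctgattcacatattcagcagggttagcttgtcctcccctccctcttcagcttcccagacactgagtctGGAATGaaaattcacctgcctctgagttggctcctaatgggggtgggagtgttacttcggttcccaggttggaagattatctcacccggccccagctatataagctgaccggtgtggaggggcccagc
CCN2: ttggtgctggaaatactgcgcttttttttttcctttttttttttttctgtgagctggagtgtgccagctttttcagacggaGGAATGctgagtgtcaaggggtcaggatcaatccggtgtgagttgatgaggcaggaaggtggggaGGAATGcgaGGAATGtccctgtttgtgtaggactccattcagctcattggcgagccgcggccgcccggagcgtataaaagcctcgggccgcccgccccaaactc
AMOTL2: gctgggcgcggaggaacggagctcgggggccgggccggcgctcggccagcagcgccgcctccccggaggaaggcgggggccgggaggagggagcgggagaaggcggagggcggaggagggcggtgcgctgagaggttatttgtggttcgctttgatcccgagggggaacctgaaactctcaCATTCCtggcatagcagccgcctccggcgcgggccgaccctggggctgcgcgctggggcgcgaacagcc

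CCN2 held the element 3 times, with first bases at -169, -104 and -95 from the start, and ANKRD1 held it 2 times, at -220 and -128. In AMOTL2 it occurred 1 time, at -69, as CATTCC. Over both strands it was present in 6 of the 10 windows found for the genes described here (60.0%) and in 14.0% of all 35116 windows. In a list of YAP/TAZ targets described further on, 9 of the 18 windows held it (50%). That list includes CCN2, ANKRD1, AMOTL2 and LATS2, so the shares of 60.0% and 50% rest partly on the same windows. Genes that did not pass held the element as well, at -162 in YAP1, at -59 in 1 of the 2 windows of AJUBA and at 9, after the start, in LATS2. Both CCN2, which rose, and ANKRD1, which fell, hold the element. Whether the element goes with a change in level was not tested. The E-box CACGTG, to which MiT/TFE factors bind, stood at -203 in YAP1 and at -5 in LATS2, which both did not pass, and was in 7.26% of all windows. Its relative CATGTG was found at -45 in 1 of the 2 windows of WWTR1, and in 11.1% of all windows. A match is only an occurrence of letters in this window, and binding was not measured in these files.

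CCN1 and CCN2 encode secreted matricellular proteins that bind integrins and growth factors, and they are the best known YAP/TAZ targets. CCN1 (ENSG00000142871, chromosome 1, 85580761 to 85583962, plus strand) had 199 and 204 CPM in shTFE3, against 262 and 261 CPM in shControl. It fell to 77.0% of the control level, and the libraries of an arm lay at most 0.038 apart on the log2 scale. The arms differed by -0.38 on that scale (SE 0.055, edgeR adjusted p 1.2e-05, 95% interval -0.49 to -0.26). Without any 1 library the log2 fold change stayed between -0.40 and -0.36, and the edgeR adjusted p was at most 0.0233.

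CCN2 (ENSG00000118523, chromosome 6, 131948176 to 131951373, minus strand) had 819 and 801 counts in shTFE3, against 601 and 595 counts in shControl, which is 45.3 ± 0.39 CPM and 35.1 ± 0.22 CPM (SD, n = 2 each). It rose to 129% of the control level, the only rise among the 10 genes. The arms differed by 0.37 on the log2 scale (SE 0.075, edgeR adjusted p 0.000674, 95% interval 0.21 to 0.52). The number of CCN2 counts per CCN1 count was 0.229 and 0.221 in shTFE3, against 0.134 and 0.134 in shControl, and this ratio does not depend on how libraries are scaled. The CCN2 call was lost without shTFE3 replicate 2, though the log2 fold change was still 0.38. It was also lost when low counts were not filtered (0.36, edgeR adjusted p 0.0634). CCN5, a relative that lacks the C-terminal domain of the others, was scarce and fell (6 and 2 counts in shTFE3, 20 and 18 in shControl, edgeR adjusted p 0.00114), a call lost without shTFE3 replicate 2 (0.0873), and DESeq2 gave no adjusted p for it. CCN3 had 118 and 114 counts in shTFE3 and 128 and 143 in shControl, with an edgeR adjusted p of 0.146. CCN4 and CCN6 had at most 2 counts in any library.

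ANKRD1, a muscle ankyrin repeat protein of sarcomere and nucleus, was barely expressed. ANKRD1 (ENSG00000148677, chromosome 10, 90912096 to 90921276, minus strand) had 7 and 9 counts in shTFE3, against 29 and 21 counts in shControl. In CPM these were 0.39 and 0.51 against 1.70 and 1.23, where 3 counts correspond to 0.167 to 0.176 CPM. ANKRD1 fell to 30.5% of the control level (-1.70 on the log2 scale, SE 0.386, edgeR adjusted p 0.0019), with a wide 95% interval of -2.49 to -0.90. It was the only 1 of the 10 genes called at 2-fold or more, where the share over all genes is 2.17%. The call did not hold without shTFE3 replicate 1, shTFE3 replicate 2 or shControl replicate 1, at log2 fold changes of -1.52, -1.9 and -1.45. It was also lost when low counts were not filtered (-1.71, edgeR adjusted p 0.101), and DESeq2 gave no adjusted p at this level. ANKRD2, its nearest relative, fell too, with 34 and 52 counts in shTFE3 against 88 and 70 in shControl (log2 fold change -0.94, SE 0.216, edgeR adjusted p 0.00197), and its call was lost without shTFE3 replicate 1 (0.137) or 2 (0.0528). The authors' deposited table gave ANKRD2 a log2 fold change of -0.94 with an adjusted p of 0.0415. ANKRD23 had at most 14 counts.

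**Figure D2:**
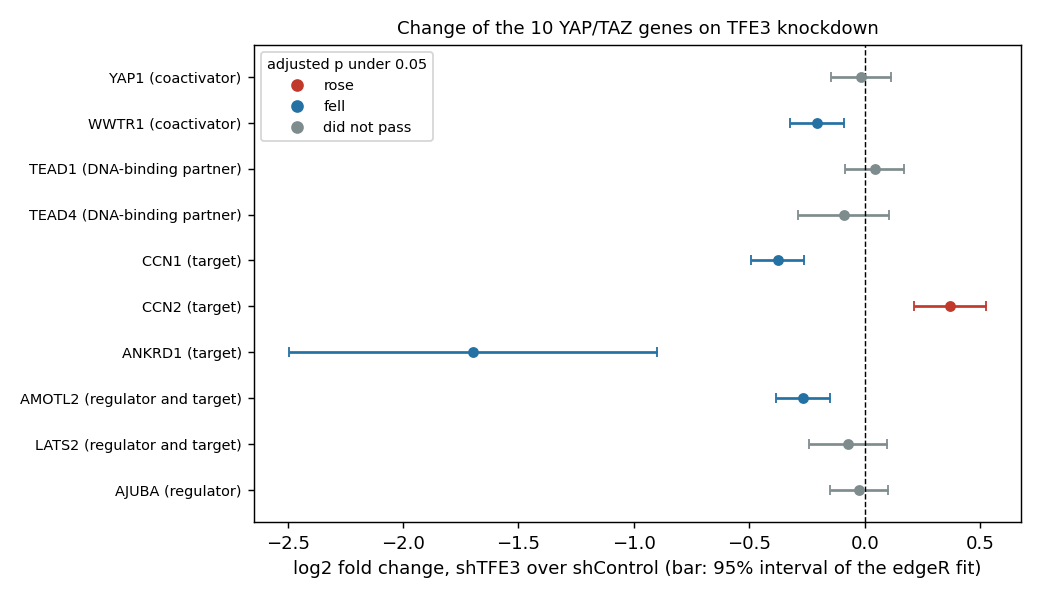
Log2 fold change of shTFE3 over shControl for the 10 genes (horizontal axis) with 95% intervals from the edgeR fit on 2 libraries an arm; blue genes fell, the red gene rose and grey genes did not pass an adjusted p of 0.05. The intervals of CCN1 (-0.49 to -0.26) and CCN2 (0.21 to 0.52) lie on opposite sides of 0, and that of ANKRD1 is the widest.

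Of the regulators, AMOTL2 fell, and LATS2 and AJUBA did not pass; the differences between their changes were not tested. AMOTL2, an angiomotin family member that binds YAP at cell junctions, had 170 and 161 CPM in shTFE3 against 202 and 197 CPM in shControl (ENSG00000114019, chromosome 3, 134355874 to 134375479, minus strand). It fell to 83.1% of the control level (log2 fold change -0.27, SE 0.057, edgeR adjusted p 0.00104, 95% interval -0.39 to -0.15), with both knockdown libraries below both controls. Its call was lost without shTFE3 replicate 2, at a log2 fold change of -0.23, and when low counts were not filtered (-0.28, edgeR adjusted p 0.0855). LATS2, a kinase that phosphorylates YAP and TAZ, had 41.1 and 36.1 CPM in shTFE3 against 39.0 and 42.3 CPM in shControl (ENSG00000150457, chromosome 13, 20973032 to 21061547, minus strand). The arms overlapped, with a difference of -0.072 on the log2 scale (SE 0.082, edgeR adjusted p 0.582, 95% interval -0.24 to 0.096). AJUBA, a LIM protein that binds and restrains the LATS kinases, had 118 and 122 CPM in shTFE3 against 126 and 119 CPM in shControl (ENSG00000129474, chromosome 14, 22971174 to 22982642, minus strand). Its arms overlapped as well, and the difference of -0.025 (SE 0.06, edgeR adjusted p 0.812) had a 95% interval of -0.15 to 0.099. For the 5 genes that did not pass, the sign of the fold change depended on which library was left out.

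Close relatives of these regulators were read from the same fit. AMOTL1 fell to 333 and 341 counts in shTFE3, against 426 and 384 in shControl (log2 fold change -0.33, edgeR adjusted p 0.0112), and AMOT had 558 and 481 counts against 469 and 500 (0.031, 0.847). The call of AMOTL1 was lost by DESeq2 (adjusted p 0.0974), without shTFE3 replicates 1 and 2 (edgeR adjusted p 0.142 and 0.118) and without shControl replicate 1 (0.159). LATS1 had 557 and 515 counts in shTFE3 and 478 and 502 in shControl (log2 fold change 0.060, edgeR adjusted p 0.666), so that neither LATS kinase passed. Of the other Ajuba family LIM proteins, LIMD1 had 370 and 361 counts in shTFE3 and 376 and 364 in shControl (edgeR adjusted p 0.557), and WTIP had 124 and 165 against 169 and 185 (0.0655).

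Scaled by length, the 10 genes covered a wide range. CCN1 was the most abundant, at 82.0 ± 1.5 CPM per kilobase of exon in shTFE3 and 107 ± 0.44 in shControl (SD, n = 2 each), followed by AMOTL2 at 27.7 ± 1.1 and 33.3 ± 0.57. AJUBA, WWTR1, YAP1, TEAD1 and CCN2 formed a middle group, between 16.6 and 20.1 CPM per kilobase in shTFE3 and between 15.0 and 20.4 in shControl. In that group the order differed between the arms, with WWTR1 last in shTFE3 (16.6 ± 0.48) and CCN2 last in shControl (15.0 ± 0.093). In shTFE3 the libraries of TEAD1 overlapped with those of AJUBA, CCN2 and YAP1, so that its place among them is within its spread, while in shControl the libraries of YAP1 and TEAD1 nearly met at 18.2. Below them stood TEAD4 (10.9 ± 1.5 and 11.6 ± 0.5), LATS2 (6.93 ± 0.63 and 7.28 ± 0.42) and ANKRD1 (0.23 ± 0.042 and 0.74 ± 0.17). Lengths are the joined exons of GENCODE release 29, which include transcripts that Caki-1 cells may not make.

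Overlapping genes could take reads from these loci, since the strand setting of the counting is not given in the sources used here. An antisense gene shares 628 exonic bases with YAP1 and had 0 counts. WWTR1-AS1 shares 795 bases with WWTR1 and had 7 and 11 counts in shTFE3 against 8 and 9 in shControl, and a gene opposite CCN2 shares 195 bases and had at most 2 counts. RPL39P5, a pseudogene that shares 187 bases with AMOTL2 on the same strand, had 0 counts. A gene on the same strand shares 50 bases with AJUBA and had 0 counts. How reads in shared bases were counted is not given either, so these counts cannot show whether such reads were left out of both genes.

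Other YAP/TAZ targets were read from a list of 22 genes known as YAP/TAZ targets in cancer cells, which includes CCN1, CCN2, ANKRD1, AMOTL2 and LATS2. The list was chosen with earlier results of these data known, so its share of calls is not independent of those results. Of the 21 tested, 10 fell, 1 rose (CCN2) and 10 did not pass, so that 52.4% were called beside 23.3% of all genes. The median log2 fold change was -0.17 over the list and 0.0015 over all genes. The summed level, in which abundant genes such as MYOF weigh most, was 3020 to 3050 CPM in shTFE3 against 3730 to 3740 CPM in shControl. Among the 16 tested genes of the list that are not among the 10, 7 fell, 0 rose and 9 did not pass (43.8% called, median -0.14). With 1 library left out, fewer genes of the list fell in each fit, as was so over all genes. When low counts were not filtered 3 genes of the list fell, and 280 over all genes.

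CRIM1 and AXL had the smallest p values of the target list. CRIM1, a transmembrane protein that binds BMPs, fell to 298 ± 9.7 CPM in shTFE3, against 459 ± 14 CPM in shControl (SD, n = 2 each; log2 fold change -0.63, SE 0.055, edgeR adjusted p 4.11e-09). AXL, a receptor tyrosine kinase, fell to 4992 and 5572 counts in shTFE3, against 7903 and 7685 in shControl (log2 fold change -0.63, SE 0.059, edgeR adjusted p 1.32e-08). These were the only genes of the target list in the authors' deposited table, whose absolute log2 fold changes were all at least 0.585. It gave a log2 fold change of -0.63 for both, with DESeq2 adjusted p values of 1.88e-22 for CRIM1 and 1.25e-18 for AXL. MYOF, a ferlin that acts in membrane repair, fell by 0.38 on the log2 scale (12050 and 12005 counts in shTFE3, 15043 and 14829 in shControl, edgeR adjusted p 4.35e-06). CCDC80, a secreted matrix protein, fell by 0.44 (1568 and 1745 against 2154 and 2142, edgeR adjusted p 1.16e-05), and FJX1 fell by 0.51 (447 and 437 against 644 and 553, edgeR adjusted p 0.00012). CRIM1, AXL, MYOF, CCDC80 and CCN1 were the 5 genes of the list whose calls held with each of the 4 libraries left out. FJX1 did not pass without shTFE3 replicate 1 (edgeR adjusted p 0.0619) or without shTFE3 replicate 2 (0.0778). Targets that did not pass included the tyrosine phosphatase PTPN14 (4998 and 4701 counts in shTFE3, 4567 and 4630 in shControl, edgeR adjusted p 0.944), IGFBP3 (3634 and 3314 against 2835 and 3346, 0.316) and TGFB2 (1188 and 1091 against 1047 and 1069, 0.749).

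**Figure D3:**
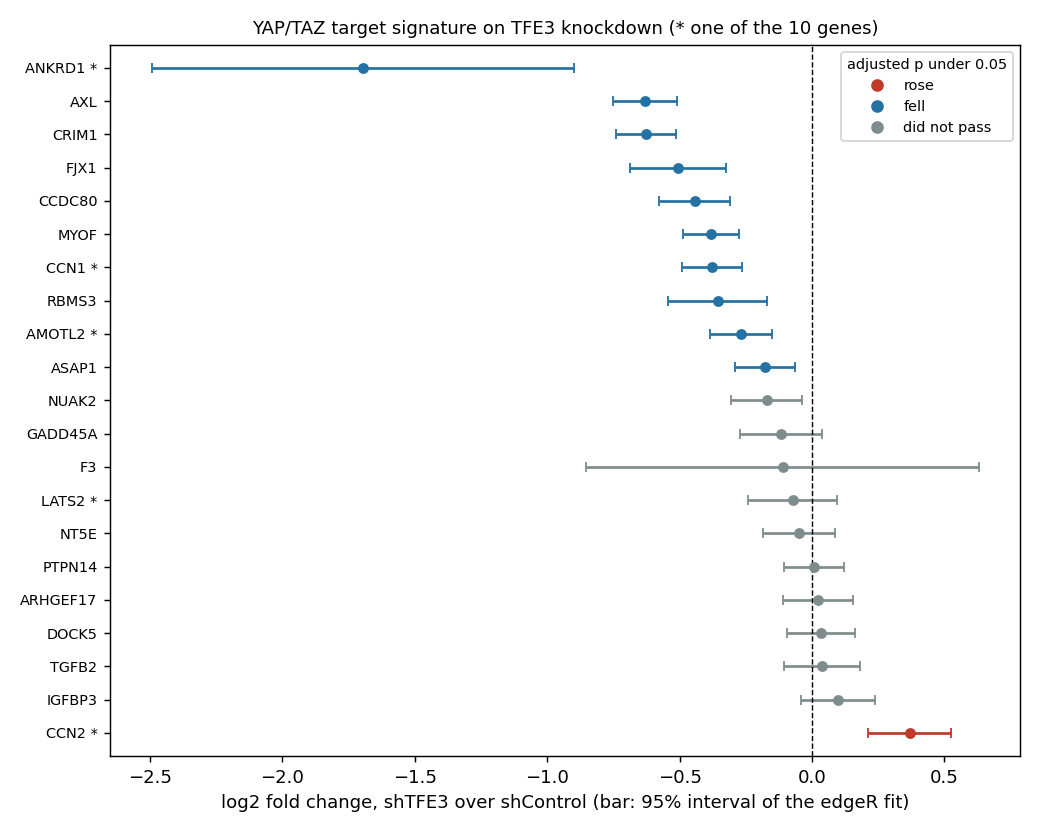
Log2 fold change of shTFE3 over shControl (horizontal axis, with 95% intervals from the edgeR fit) for the 21 tested genes of the YAP/TAZ target list, ordered by value; asterisks mark genes that are among the 10. Of the 21 genes 10 fell (blue), led by ANKRD1, AXL and CRIM1, and CCN2 (red) was the only one that rose.

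The kinases and scaffolds that restrain YAP and TAZ changed in both directions. Of 21 tested genes of the Hippo kinase core 6 fell, 3 rose and 12 did not pass (42.9% called beside 23.3% of all genes, median log2 fold change -0.072). TNIK, a MAP4K family kinase, fell to 1213 and 1077 counts in shTFE3, against 1632 and 1570 in shControl (log2 fold change -0.55, SE 0.068, edgeR adjusted p 1.07e-06). SAV1, the scaffold of the MST kinases, fell to 407 and 367 counts against 483 and 474 (-0.38, edgeR adjusted p 0.00279), and STK3, which encodes MST2, fell to 675 and 708 against 770 and 830 (-0.28, 0.00892), a call that DESeq2 did not make (adjusted p 0.0573). WWC2 (-0.25, edgeR adjusted p 0.00412) and NF2 (-0.23, 0.0101), the gene of merlin, fell as well. Without shTFE3 replicate 2 the change of WWC2 was -0.16 (edgeR adjusted p 0.137), and without shControl replicate 1 that of NF2 was -0.14 (0.269). MINK1, another MAP4K family kinase, rose to 1989 and 1926 counts in shTFE3, against 1451 and 1555 in shControl (0.31, edgeR adjusted p 0.000565). With 1 library left out, fewer genes of the list fell and fewer rose in each fit, as was so over all genes. TNIK was the only call of this list that held with each of the 4 libraries left out. When low counts were not filtered, 0 genes of the list fell and 0 rose, and over all genes 280 fell and 104 rose.

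Upstream regulators at junctions and in polarity complexes had 5 falls, 2 rises and 24 that did not pass among 31 tested (22.6% called beside 23.3% of all genes, median log2 fold change -0.011). RASSF6, an adaptor that binds the MST kinases, was scarce and fell to 37 and 36 counts in shTFE3, against 83 and 92 in shControl (log2 fold change -1.33, SE 0.199, edgeR adjusted p 1.79e-05); the authors' deposited table gave it -1.33 with an adjusted p of 0.000949. FAT4, an atypical cadherin, fell to 519 and 505 counts against 644 and 621 (-0.37, edgeR adjusted p 0.00105), while its relative FAT1 rose to 23950 and 21011 counts against 18280 and 18069 (0.24, 0.00295). Without shTFE3 replicate 1 the change of FAT1 was 0.15 (edgeR adjusted p 0.0821). The polarity protein gene SCRIB rose (0.26, edgeR adjusted p 0.00152) and PATJ fell (-0.27, 0.00901), though not by DESeq2 (adjusted p 0.0575). With 1 library left out, the list had no more falls and no more rises than with all libraries. Over all genes both numbers dropped in each of these fits. RASSF6 was the only call that held with each library left out. The falls numbered 3 by DESeq2 and 1 with no filter on low counts, where 1309 and 280 fell over all genes.

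**Figure D4:**
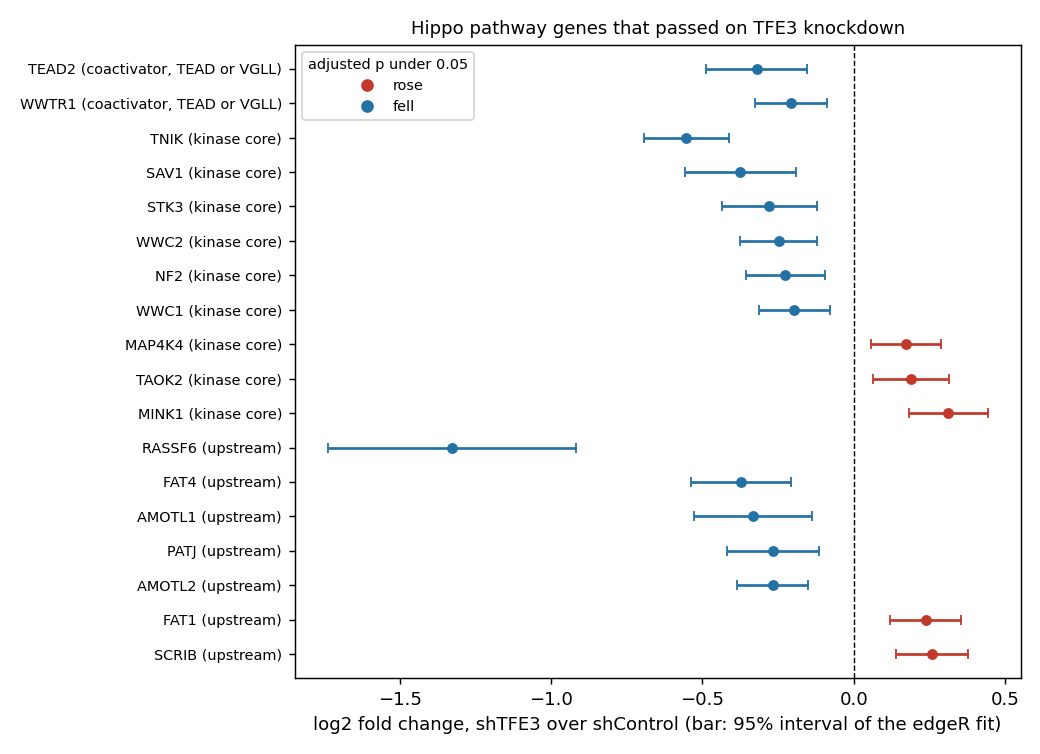
Log2 fold change of shTFE3 over shControl (horizontal axis, with 95% intervals from the edgeR fit) for the Hippo pathway genes that passed, by list; blue genes fell and red genes rose. RASSF6 and TNIK show the largest falls, at -1.33 and -0.55, and MINK1 the largest rise, at 0.31.

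The libraries' pattern for CCN1 and CCN2 was also compared with that of 10912 genes averaging 100 counts or more, by the root mean square distance between centred log2 CPM profiles over the 4 libraries. NEK6, CHMP2B, S100A11 and SLC25A13 were nearest to CCN1, at distances of 0.00722 to 0.0102 log2 units. NEK6, the nearest, had 150 and 153 CPM in shTFE3 against 199 and 195 CPM in shControl. GCLM, CCDC86, USP40, RTCA-AS1 and DYRK3 were nearest to CCN2, at distances of 0.00885 to 0.0127. GCLM, a subunit of the enzyme that starts glutathione synthesis, had 105 and 103 CPM in shTFE3 against 81.5 and 81.1 CPM in shControl. Over 4 libraries such likeness is a description only.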

How the data were processed

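RNA of 4 Caki-1 libraries was sequenced as paired 150-base reads, per the labels' protocols. Per the submitters' processing notes, reads were handled with STAR, featureCounts and Trim Galore on hg38, and the authors deposited raw read counts per Ensembl gene. The sources used here give no versions, gene annotation or strand setting. The authors' deposited table of 546 genes, made with DESeq2 per the submitters' processing notes, gives mean normalized signal, log2 fold changes, a test score and p-values. Its absolute log2 fold changes were at least 0.585, and it lists 0 of the 10 genes.

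Symbols came from a gene name table by unversioned identifier, and positions and exon lengths from GENCODE release 29 (GRCh38), perhaps not the annotation used for counting. The test was edgeR 4.0.16 in R 4.3.3: TMM, filterByExpr by group (15950 genes with 99.8% of counts), a design with the arm only, quasi-likelihood test, Benjamini-Hochberg adjustment over all genes. The standard error is the absolute log2 fold change divided by the square root of F. The fit had 2 residual and 22.4 prior degrees of freedom. Its procedure was tested on independent counts simulated with the spread fitted to these libraries. Such counts cannot show how the p-values hold if the libraries of an arm are technical. Replicates differed beyond sampling noise (chi-square per degree of freedom 3.3 in shTFE3 and 2 in shControl). Intervals and the floor of 3 counts cover only what the fit and counting show, not PCR copies. The 10 genes and the gene lists were chosen with earlier results of these data known; named genes are these 10, their paralogs, up to 6 genes of smallest p per list, and the 5 nearest patterns, and some of them are not reported here. IGFBP3, TGFB2 and PTPN14 were picked outside that rule once their values had been seen. MRTFA, MRTFB and SRF, named as the factors of the SRF and MRTF list, also lie outside that rule. Other normalizations and filters were tried, as were DESeq2 1.42.0, limma-voom (limma 3.58.1), a replicate block and leaving out each library.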

Additional observations from a re-analysis of the deposited data

How the results depend on the processing

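Over all genes, 104 rose and 280 fell with no filter on low counts, 848 and 1309 by DESeq2, and 367 to 1008 rose and 676 to 1507 fell with 1 library left out, against 1650 and 2059. Of the 10 genes, 0 rose and 1 (CCN1) fell with no filter on low counts, where the log2 fold change was -0.22 for WWTR1, 0.36 for CCN2, -1.71 for ANKRD1 and -0.28 for AMOTL2. With 1 library left out, 0 to 1 rose and 1 to 3 fell, with log2 fold changes of -0.23 to -0.18 for WWTR1, 0.36 to 0.38 for CCN2, -1.91 to -1.45 for ANKRD1 and -0.31 to -0.23 for AMOTL2. With no filter on low counts, 0 coactivator, TEAD and VGLL genes fell, 0 kinase core genes rose and 0 fell, 0 upstream regulators rose and 1 fell, and 0 targets rose and 3 fell. With 1 library left out the falls were 0 to 1 for coactivator, TEAD and VGLL genes, 1 to 4 for the kinase core, 1 to 5 for upstream regulators and 5 to 8 for targets, and the rises 0 to 2 for the kinase core, 0 to 2 for upstream regulators and 0 to 1 for targets. By DESeq2 3 upstream regulators fell. SRF, MRTFA, MRTFB and their targets together (22 tested, 7 targets down and MRTFA up) had 0 down and 0 up with no filter on low counts, 2 up (MRTFA and MRTFB) with at least 50 counts in 2 libraries, 0 up by DESeq2, and 0 to 6 down and 0 up with 1 library left out. The causes were not tested. A fit on 3 libraries has 1 residual degree of freedom and takes the lone library of an arm to vary like the other. Same-numbered libraries did not deviate together (correlation -0.0292) and the labels tie them by number only. With the replicate block 4 of the 10 genes fell and 1 rose, and 1568 genes rose and 1990 fell overall. Other normalizations and limma-voom changed no call among the 10. Precision is limited by 2 libraries an arm and, for ANKRD1 and CCN5, by counts under 30.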

Other observations

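Of 19 tested targets of the actin-sensing factors SRF and MRTF, 7 fell, 0 rose and 12 did not pass, a share of 36.8% called beside 23.3% of all genes, and their median was -0.12 on the log2 scale. Of the 3 factors themselves, 1 rose (MRTFA). The tropomyosin gene TPM1 fell to 16540 and 15716 counts in shTFE3, against 18081 and 18087 in shControl (log2 fold change -0.23, SE 0.052, edgeR adjusted p 0.00145). The myosin light chain gene MYL9 (-0.32, edgeR adjusted p 0.00258) and CALD1 (-0.23, 0.00355), the gene of the actin-binding caldesmon, fell too, and these 3 calls were lost without shTFE3 replicate 2 (0.0526 for TPM1, 0.0939 for MYL9 and 0.0915 for CALD1). MRTFA rose to 816 and 789 counts in shTFE3, against 646 and 666 in shControl (0.22, edgeR adjusted p 0.0333), and lost its call by DESeq2 (adjusted p 0.151) and in each fit with 1 library left out, with edgeR adjusted p values of 0.104 to 0.21. SRF itself had 735 and 714 counts in shTFE3 and 695 and 657 in shControl, with an edgeR adjusted p of 0.819. No call among these targets and factors held with each of the 4 libraries left out.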
